A study of Mus musculus with 13 samples.

Results

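Pla2g7, Anxa1, Casp1, Car2, Slc15a1, Gabrb2, Prkg2, Cyp27a1, Crabp1 and Cpe are 10 of the 19937 genes measured by a probe set of a single gene on these arrays. They were chosen by their higher level in sorted mouse melanocytes with a Braf allele than in melanocytes without it at day 19, read from the probe set with the highest mean of each gene on the scale log2(intensity + 1), which is the scale of every level below. The values that chose them are those of the 4 day 19 arrays, so their differences between those arrays are a description and carry no test. What the choice did not use is their level on the other 9 arrays, and the tests of the 10 genes use these alone.

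The series measured RNA on 13 Affymetrix whole-transcript arrays, 1 for each sample, in 6 groups. Uncultured tissue gave Cdkn2a/Braf/Lkb1 melanoma (2 arrays), Cdkn2a/Braf melanoma (2 arrays) and Lkb1/Braf melanocytic proliferations, which were pooled (3 arrays). Cells purified by flow cytometry gave Cdkn2a/Braf melanocytes at day 50, Cdkn2a/Braf melanocytes at day 19 and Cdkn2a only melanocytes at day 19 (2 arrays each). By the labels, the Cdkn2a/Braf cells were taken before growth arrest at day 19 and after it at day 50. Every group but the Cdkn2a only cells carries the Braf allele, every group but the proliferations carries the Cdkn2a alteration, and Lkb1 (Stk11) is altered in the proliferations and in 1 of the melanoma genotypes. The labels name the altered genes but give neither the design of the alleles, nor the cells in which they act, nor the age of the tissues. They call the samples of a group biological replicates, and the groups of 2 and 3 arrays limit the precision of every value.

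BRAF is a kinase of the RAS, MEK and ERK cascade, and its activated forms drive melanocytes into a phase of growth that usually ends in the arrested state of a mole. CDKN2A encodes inhibitors of the cell cycle and of p53 breakdown, and LKB1 is the kinase that activates AMPK and through it restrains mTORC1. The 10 genes do not belong to a single pathway. Their functions include control of inflammatory lipids and cytokines, movement of ions and small peptides, and handling of sterols, retinoids and peptide hormones, and cyclic GMP signalling.

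Promoter sequences are shown for 4 of the genes. The 10 were all chosen as higher in Cdkn2a/Braf cells at day 19, and their windows differ in which searched motifs they hold. RefSeq (GRCm38.p6) had promoter windows for 7 of the 10 genes, 9 windows in all since Gabrb2 has 3 annotated starts; Car2, Prkg2 and Cpe had none in the table used. Each sequence is the 250 bases before the annotated start, 5′ to 3′ on the strand of the gene, at chr19:20390672-20390921 (minus strand) for Anxa1, chr9:5298267-5298516 (plus strand) for Casp1, chr11:42420190-42420439 (plus strand) for the most upstream start of Gabrb2, and chr14:121505255-121505504 (minus strand) for Slc15a1. Capitals mark a match to a motif that was searched, read on either strand.
Anxa1: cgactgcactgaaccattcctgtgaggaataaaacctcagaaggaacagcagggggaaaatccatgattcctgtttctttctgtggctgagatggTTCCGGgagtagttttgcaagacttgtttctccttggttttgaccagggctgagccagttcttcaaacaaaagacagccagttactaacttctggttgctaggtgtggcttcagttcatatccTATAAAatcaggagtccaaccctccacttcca
Casp1: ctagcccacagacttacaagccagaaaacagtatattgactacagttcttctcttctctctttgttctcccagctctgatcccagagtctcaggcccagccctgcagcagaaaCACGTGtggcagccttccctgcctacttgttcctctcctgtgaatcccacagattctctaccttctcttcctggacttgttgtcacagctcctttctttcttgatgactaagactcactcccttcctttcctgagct
Gabrb2: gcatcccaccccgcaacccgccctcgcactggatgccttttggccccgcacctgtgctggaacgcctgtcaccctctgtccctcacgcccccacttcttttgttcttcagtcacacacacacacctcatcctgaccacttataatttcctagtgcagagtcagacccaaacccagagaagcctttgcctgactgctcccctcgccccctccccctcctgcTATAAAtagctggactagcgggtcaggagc
Slc15a1: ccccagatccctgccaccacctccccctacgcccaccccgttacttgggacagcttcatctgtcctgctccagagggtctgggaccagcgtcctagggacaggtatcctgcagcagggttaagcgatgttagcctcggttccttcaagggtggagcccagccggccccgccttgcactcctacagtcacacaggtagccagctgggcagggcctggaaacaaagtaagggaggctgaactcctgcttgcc
The 6 motifs below were searched on both strands, and no match in the printed windows overlaps another. The ETS letters CCGGAA, which ERK-responsive ETS factors can bind, occurred in 12.0% of all 32851 windows of this length and in 1 of the 9 windows, that of Anxa1, where the reverse complement begins at -155. The E-box CACGTG occurred in 6.02% of all windows and in 1 of the 9, that of Casp1, beginning at -137. The TATA letters TATAAA occurred in 12.4% of all windows and in 2 of the 9, beginning at -32 in Anxa1 and at -30 in Gabrb2. Positions count back from the start, with -1 the last base printed. The AP-1 letters TGANTCA (6.75% of all windows), the CRE letters TGACGT (6.47%) and the M-box CATGTG (12.3%) occurred in 0 of the 9, and the Slc15a1 window held none of the 6. The matches describe these windows and do not show a factor's binding.

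The labelled cell types were set against marker lists before the 10 genes were described. The sorted cells carried the melanocyte markers. The 17 genes of the melanocyte list (17 of 17 measured) had summed intensities of 28107 to 38341 at day 50 in Cdkn2a/Braf cells, 63590 to 69529 at day 19 in Cdkn2a/Braf cells and 72964 to 73285 in Cdkn2a only cells. The same sum was 1302 to 1446 in Cdkn2a/Braf/Lkb1 melanoma, 1416 to 1786 in Cdkn2a/Braf melanoma and 5154 to 5563 in the proliferations. Tyrp1, a melanosomal enzyme, had a mean of 4.70 in Cdkn2a/Braf/Lkb1 melanoma, 5.43 in Cdkn2a/Braf melanoma, 8.39 in the proliferations and 12.8 or more in each sorted group. Mlana, another melanosomal gene, had means of 6.86 and 6.73 in the same 2 melanoma genotypes and 10.25 in the proliferations. Sox10, a transcription factor of neural crest and melanocytes, did not follow this order, with means of 6.20 in Cdkn2a/Braf/Lkb1 melanoma, 7.59 in Cdkn2a/Braf melanoma, 7.27 in the proliferations and 8.74 to 8.82 in the sorted groups. No defining marker can be listed at 0 on these arrays, since every intensity is above 0. Fewer cells of a type and less RNA per cell cannot be told apart in bulk samples. Xist was high on 0 of 2 and 0 of 2 melanoma arrays of the 2 genotypes, 3 of 3 proliferation arrays, 2 of 2 day 50 arrays and 1 of 2 arrays in each day 19 group, so sex is balanced between the day 19 groups and cannot be told apart from group in the comparisons of melanoma with the proliferations or with day 50. Braf itself was 8.78 and 8.85 in day 19 Cdkn2a/Braf cells, against 9.27 and 9.31 in Cdkn2a only cells. The labels do not say which exons the Braf allele alters, so the genotype cannot be read from its level.

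**Figure D1:**
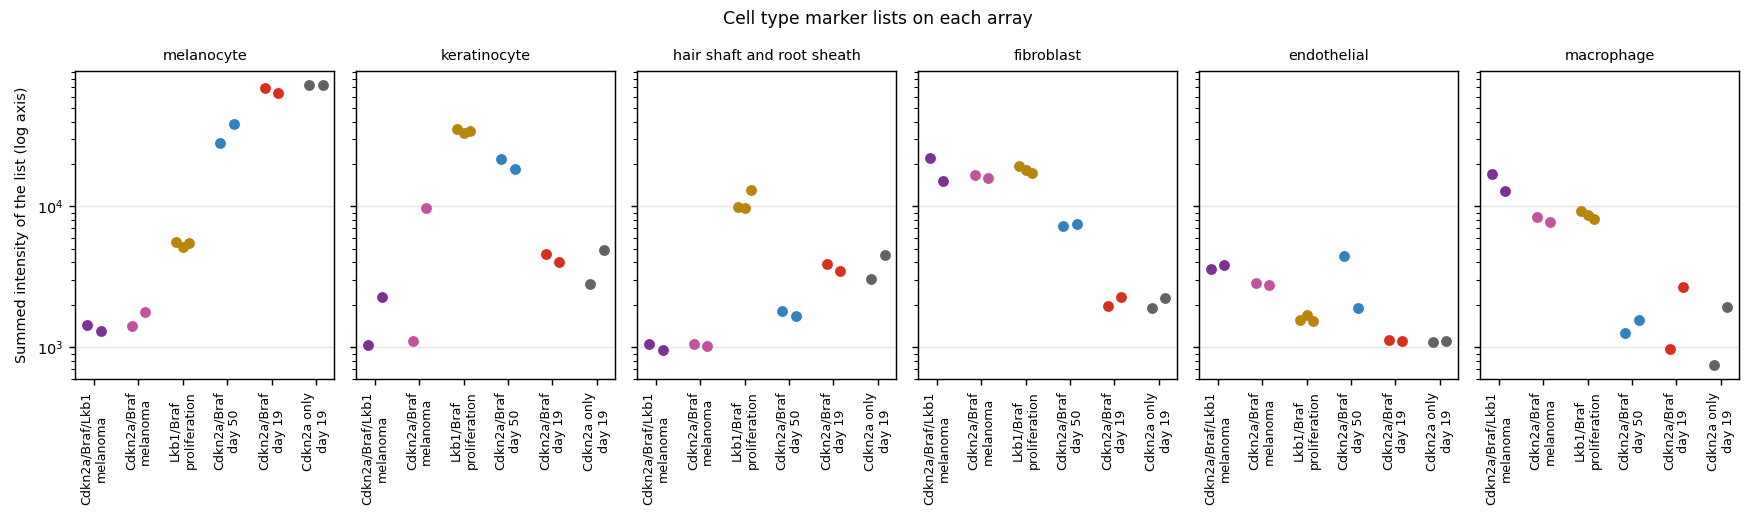
Summed linear intensity (log axis) of 6 cell type marker lists on each array, by group; each point is 1 array. The melanocyte list sums to 63590 or more on the 4 day 19 arrays and to 1786 or less on the 4 melanoma arrays, while the keratinocyte list is highest in the proliferations.

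The values carry no flag for signal over background, so a fold is given below only where the lower group mean is above the median gene level of 6.51, and otherwise the log2 difference alone.

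All 10 genes lay higher on both Cdkn2a/Braf arrays than on both Cdkn2a only arrays at day 19. Over all genes 47 (0.236%) were called higher in this contrast by limma, and the 10 are among them because the choice used the contrast, so nothing is read from that share. Likewise 23.1% of all genes had both Cdkn2a/Braf arrays above both Cdkn2a only arrays. The median difference of the 10 genes was 3.01, against 0.02 over all genes. Of the called genes that were not chosen, 16 had a larger difference than the smallest of the 10, and 5 of these are keratin-associated genes or a gene model beside them, led by Krtap6-1. The nearest to the smallest member, Crabp1 (1.494), were Mfge8 (1.495) and Timp2 (1.499) just above it, and Ephx4 (1.42) and Ccnd1 (1.42) just below it.

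Among the genes of inflammatory lipids and cytokines the difference was largest for Pla2g7. Pla2g7 encodes the secreted phospholipase that inactivates platelet-activating factor and oxidised phospholipids. Its level was 9.98 and 10.28 in day 19 Cdkn2a/Braf cells, against 5.81 and 6.51 in Cdkn2a only cells, a difference of 3.97. Anxa1, a calcium-dependent phospholipid-binding protein that acts through formyl peptide receptors to limit neutrophil entry, had levels of 10.40 and 10.84, against 7.47 and 7.75 in Cdkn2a only cells, a difference of 3.01 or 8.07-fold. Casp1, the inflammasome protease that matures interleukin-1 beta and interleukin-18, had levels of 7.68 and 7.42, against 4.90 and 4.65 in Cdkn2a only cells, a difference of 2.78. No array of one genotype overlapped the other for any of the 3. Macrophages also express these genes, and the 17 genes of the macrophage list (17 of 17 measured) summed to 979 and 2696 in the Cdkn2a/Braf cells and 749 and 1929 in the Cdkn2a only cells. The 2 groups overlap in this sum, and its part in these differences was not tested.

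Car2, Slc15a1 and Gabrb2 had differences of 3.00 to 3.54. Car2, the cytosolic carbonic anhydrase that interconverts carbon dioxide and bicarbonate, had levels of 8.26 and 9.34 in Cdkn2a/Braf cells, against 5.21 and 5.32 in Cdkn2a only cells, a difference of 3.54. Slc15a1, the proton-coupled transporter of di- and tripeptides, had levels of 8.46 and 8.10, against 5.40 and 4.61 in Cdkn2a only cells, a difference of 3.28. Gabrb2, a beta subunit of the GABA-A receptor, a chloride channel of neurons, had levels of 8.14 and 8.02, against 5.10 and 5.05 in Cdkn2a only cells, a difference of 3.00. Car2 was the gene whose Cdkn2a/Braf arrays lay farthest apart of these, and Gabrb2 the one whose arrays lay closest within both groups. Gabrb2 has 2 further probe sets, which differed by 3.22 and 2.82, so its 3 sets gave the same direction and a like size. The marker list for hair shaft and root sheath (20 of 21 genes measured) summed to 3506 to 3879 in Cdkn2a/Braf cells and 3042 to 4543 in Cdkn2a only cells, which overlap. However, 4 of its 20 measured genes were called higher (0.236% of all genes were) and 0 lower by limma in this contrast. The keratin-associated genes called higher here were Krtap6-1 (3.27), Krtap6-2 (2.71), Krtap6-5 (2.47) and Krtap19-2 (2.09). Of the defining markers of the list, Krt35 (7.60 against 7.89), Krt25 (7.48 against 8.15), Krt71 (7.28 against 8.15) and Tchh (7.93 against 9.14) had lower means in Cdkn2a/Braf cells. Hoxc13 (6.61 against 6.44) had a higher mean, and the arrays of each of these markers overlapped. The part of this list in these differences was not tested.

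Prkg2 encodes the membrane-bound cyclic GMP-dependent kinase, which acts below natriuretic peptide receptors in growing cartilage. Its level was 7.04 and 7.90 in Cdkn2a/Braf cells, against 4.15 and 4.34 in Cdkn2a only cells, a difference of 3.23. A second probe set of Prkg2 gave 1.49, the same direction at a smaller size. Cpe, the carboxypeptidase that trims basic residues from prohormones in secretory granules, had levels of 10.65 and 11.02, against 8.42 and 8.22 in Cdkn2a only cells, a difference of 2.51 or 5.71-fold.

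The sterol and retinoid genes had the smallest differences. Cyp27a1, a mitochondrial hydroxylase of the sterol side chain, had levels of 8.54 and 8.37, against 7.25 and 6.62 in Cdkn2a only cells, a difference of 1.52 or 2.86-fold. Crabp1, a cytosolic carrier of retinoic acid, had levels of 8.16 and 8.22, against 6.70 and 6.69 in Cdkn2a only cells, a difference of 1.49 or 2.82-fold. Crabp1 had the tightest arrays of the 10 genes in both genotypes, and the 2 Cdkn2a only arrays of Cyp27a1 had an SD of 0.45 (n = 2).

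**Figure D2:**
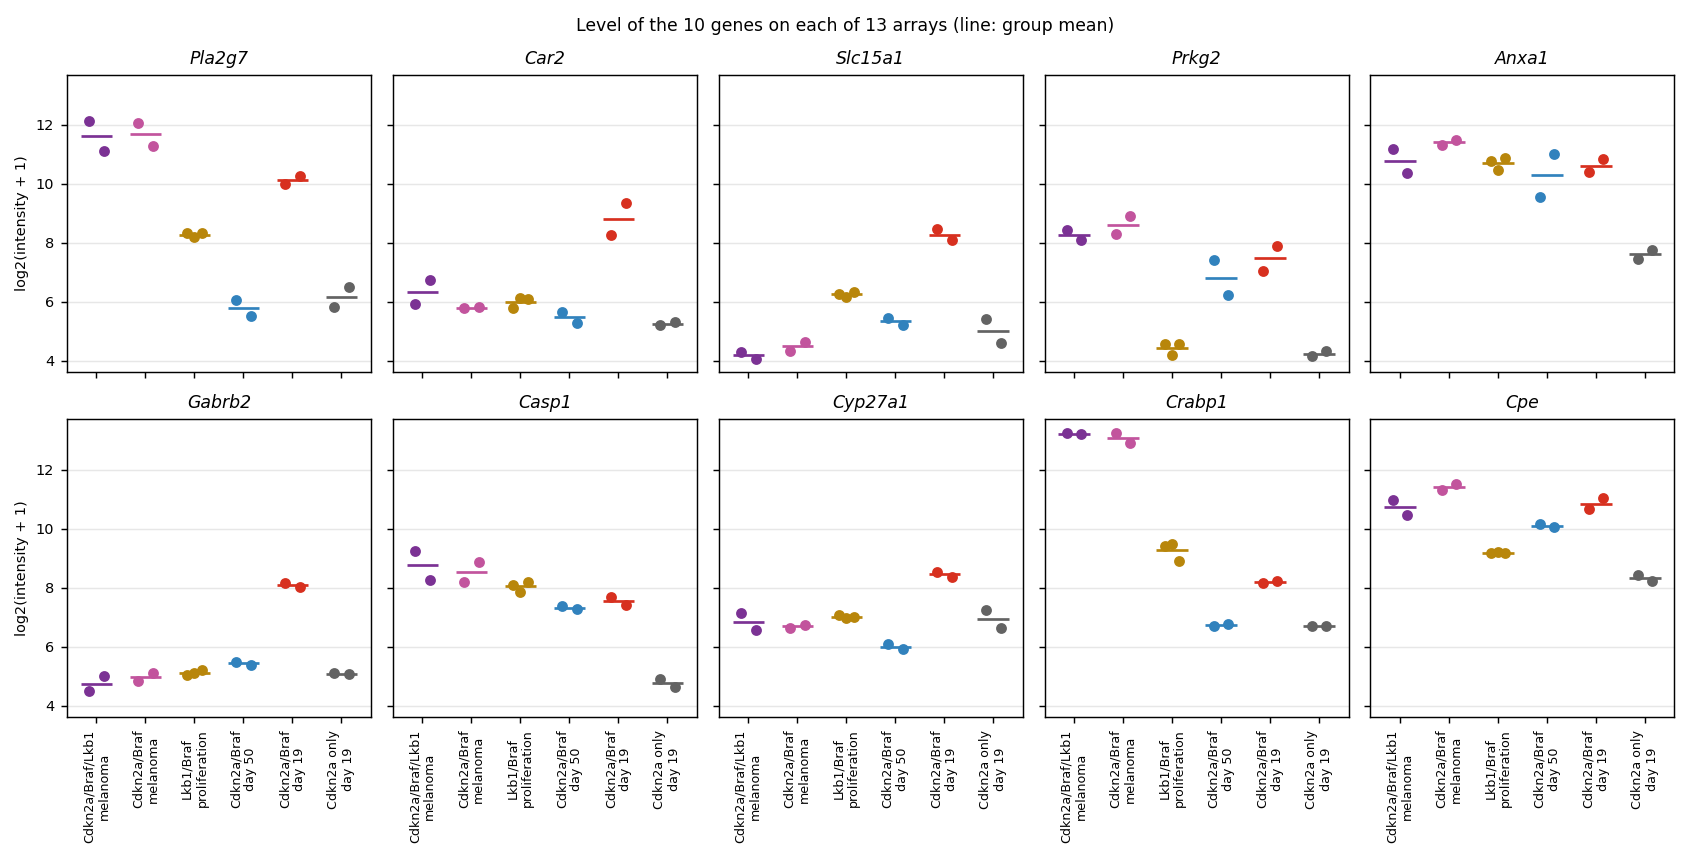
Level of each of the 10 genes, log2(intensity + 1), on each of the 13 arrays by group; points are arrays and lines are group means. Car2, Slc15a1, Gabrb2 and Cyp27a1 peak in the day 19 Cdkn2a/Braf cells, and Pla2g7, Prkg2, Crabp1 and Cpe reach or pass that level again in melanoma. The second probe set of Prkg2, which is not plotted, had lower means in melanoma (6.32 and 6.26) than in those cells (6.63).

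In Cdkn2a/Braf cells at day 50 the 10 genes had separated into genes near the Cdkn2a only level and genes that stayed well above it. Both day 19 groups chose the genes, so the comparisons with day 50 also carry no test, and the day 50 arrays serve in both. Of the 10 genes 8 lay lower on both day 50 arrays than on both Cdkn2a/Braf day 19 arrays (24.8% of all genes did), and Prkg2 and Anxa1 overlapped. Against Cdkn2a only cells, 6 of the 10 lay higher on both day 50 arrays (45.8% of all genes did), Cyp27a1 lay lower (21.9% of all genes did), and Pla2g7, Car2 and Slc15a1 overlapped. Since the day 19 arrays chose the genes, nothing is read from these counts.

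The first set was led by Pla2g7, which was 6.05 and 5.52 at day 50, against 9.98 and 10.28 at day 19, lower by a log2 difference of -4.34. Car2 was 5.67 and 5.27 at day 50, a difference of -3.33 from day 19. Slc15a1 was 5.47 and 5.23, a difference of -2.93. These 3 genes overlapped the Cdkn2a only arrays at day 50. Gabrb2 was 5.49 and 5.39, a difference of -2.64 from Cdkn2a/Braf cells at day 19 and of 0.36 from Cdkn2a only cells. Its second probe set disagreed between the day 50 arrays, at 4.17 and 6.45, with a mean of 5.31, against 7.67 in Cdkn2a/Braf cells and 4.45 in Cdkn2a only cells at day 19. Crabp1 was 6.71 and 6.78, a difference of -1.45 from Cdkn2a/Braf cells at day 19 and of 0.05 from Cdkn2a only cells. Cyp27a1 was 6.08 and 5.93, which is -2.45 from Cdkn2a/Braf and -0.93 from Cdkn2a only cells at day 19, the only gene of the 10 below the Cdkn2a only arrays.

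The second set kept most of its difference from Cdkn2a only cells. Casp1 was 7.37 and 7.27 at day 50, only -0.23 from Cdkn2a/Braf cells at day 19 and 2.55 above Cdkn2a only cells. Anxa1 was 9.565 and 11.0004, a difference of -0.34 from day 19 and of 2.68 (6.39-fold) from Cdkn2a only cells, with the 2 day 50 arrays on either side of the day 19 pair. Prkg2 was 7.42 and 6.22, a difference of -0.65 from day 19 and of 2.57 from Cdkn2a only cells. The second probe set of Prkg2 had a mean of 6.91 at day 50. At day 19 that probe set had means of 6.63 in Cdkn2a/Braf cells and 5.14 in Cdkn2a only cells. Cpe was 10.16 and 10.04, a difference of -0.73 from day 19 and of 1.78 (3.44-fold) from Cdkn2a only cells. Anxa1 and Prkg2 are the genes whose day 50 arrays differed most, with SDs of 1.01 and 0.85 (n = 2).

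Other cell types also differed between the sorts. The 16 genes of the fibroblast list (16 of 16 measured) summed to 7216 to 7472 at day 50, 1965 to 2278 in day 19 Cdkn2a/Braf cells and 1905 to 2249 in Cdkn2a only cells. The 16 keratinocyte genes (16 of 16 measured) summed to 18524 to 21686, 4056 to 4574 and 2833 to 4909 in the same 3 groups. The Schwann and neural crest list (11 of 14 measured) summed to 13605 and 6746 on the day 50 arrays, 3587 to 4761 in day 19 Cdkn2a/Braf cells and 3612 to 4132 in Cdkn2a only cells, and the endothelial list (14 of 14 measured) to 4422 and 1887, 1115 to 1126 and 1086 to 1109. Both were higher on the day 50 array with the higher Prkg2 and the lower Anxa1. The part of these lists in the day 50 levels was not tested.

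**Figure D3:**
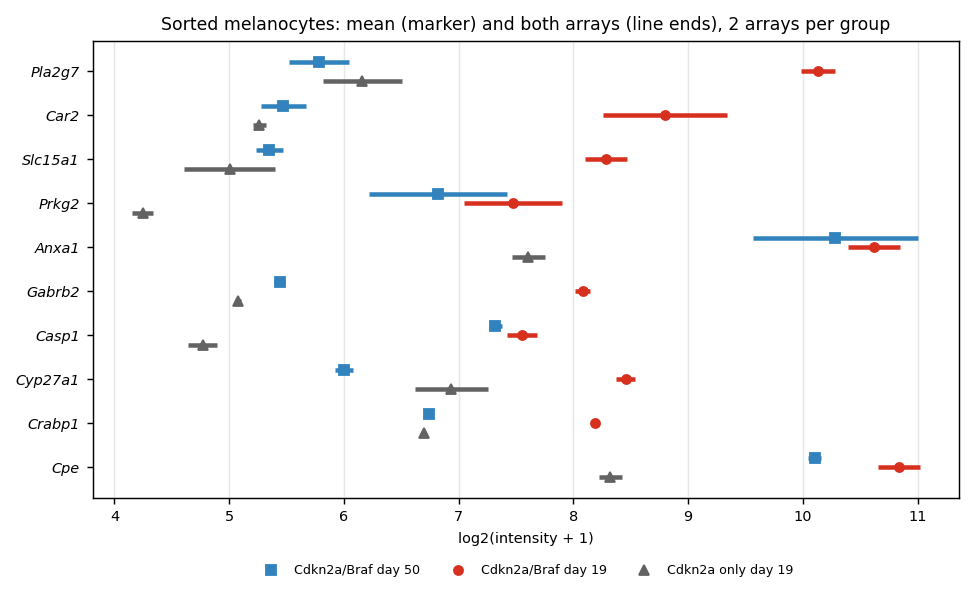
Level, log2(intensity + 1), of the 10 genes in the 3 groups of sorted melanocytes; markers are means and line ends are the 2 arrays of a group. At day 50 Pla2g7, Car2, Slc15a1, Gabrb2 and Crabp1 lie within 0.37 of the Cdkn2a only mean, while Prkg2, Anxa1, Casp1 and Cpe stay 1.78 to 2.68 above it.

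The lesions were compared on the 9 arrays that the choice had not used. Pla2g7 and Crabp1 had their highest levels of the series in melanoma. Pla2g7 was 12.14 and 11.12 in Cdkn2a/Braf/Lkb1 melanoma, 12.07 and 11.29 in Cdkn2a/Braf melanoma, and 8.32, 8.19 and 8.33 in the proliferations. Crabp1 was 13.23 and 13.22 in Cdkn2a/Braf/Lkb1 melanoma, 13.25 and 12.89 in Cdkn2a/Braf melanoma, and 9.41, 9.47 and 8.91 in the proliferations. Every melanoma array of both genes lay above every array of sorted cells.

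Prkg2 was 8.43 and 8.10 in Cdkn2a/Braf/Lkb1 melanoma, 8.31 and 8.92 in Cdkn2a/Braf melanoma, and 4.58, 4.19 and 4.56 in the proliferations, which lay at the level of Cdkn2a only cells. Cpe was 10.97 and 10.46 in Cdkn2a/Braf/Lkb1 melanoma, 11.30 and 11.51 in Cdkn2a/Braf melanoma, and 9.17, 9.20 and 9.16 in the proliferations. Slc15a1 had the opposite order, with 4.29 and 4.07 in Cdkn2a/Braf/Lkb1 melanoma, 4.35 and 4.65 in Cdkn2a/Braf melanoma, and 6.27, 6.18 and 6.33 in the proliferations. No melanoma array overlapped the proliferations for any of these 5 genes. Cdkn2a/Braf melanoma also did not overlap them for Anxa1, Casp1 and Cyp27a1, nor Cdkn2a/Braf/Lkb1 melanoma for Casp1 and Gabrb2. The share of all genes without overlap was not computed, so nothing is read from the separation.

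The other 5 genes differed less between the lesions. Anxa1 was 11.16 and 10.37 in Cdkn2a/Braf/Lkb1 melanoma, 11.33 and 11.49 in Cdkn2a/Braf melanoma, and 10.77, 10.48 and 10.88 in the proliferations. Casp1 was 9.24 and 8.26 in Cdkn2a/Braf/Lkb1 melanoma, 8.20 and 8.86 in Cdkn2a/Braf melanoma, and 8.08, 7.85 and 8.20 in the proliferations. The mean of each of these 2 genes was at or above its day 19 mean in all 3 kinds of tissue. Cyp27a1 was 7.13 and 6.57 in Cdkn2a/Braf/Lkb1 melanoma, 6.62 and 6.74 in Cdkn2a/Braf melanoma, and 7.055, 6.98 and 7.005 in the proliferations. Car2 was 5.91 and 6.73 in Cdkn2a/Braf/Lkb1 melanoma, 5.80 and 5.82 in Cdkn2a/Braf melanoma, and 5.80, 6.11 and 6.10 in the proliferations. Gabrb2 was 4.50 and 4.99 in Cdkn2a/Braf/Lkb1 melanoma, 4.83 and 5.10 in Cdkn2a/Braf melanoma, and 5.04, 5.11 and 5.19 in the proliferations. By this probe set Gabrb2 did not exceed 5.49 on any of the 9 arrays, while its second probe set reached 6.45 on 1 day 50 array.

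Cdkn2a/Braf/Lkb1 and Cdkn2a/Braf melanoma differ by Lkb1 in their labels, and none of the 10 genes passed the test between them. By limma 0 of the 10 were called, against 1.4% of all genes, and 1 of the 10 (Cpe) had an unadjusted p under 0.05, against 16.7% of all genes. Cpe differed by -0.69 (SE 0.18, limma adjusted p = 0.128). The arrays of the 2 genotypes did not overlap for Cpe, Anxa1, Car2 and Slc15a1, and the share of all genes without overlap was not computed. Anxa1 differed by -0.64 (SE 0.44, limma adjusted p = 0.506) and Car2 by 0.52 (SE 0.27, limma adjusted p = 0.382), and the other 7 genes by 0.35 or less in size. With arrays brought to one interquartile range, Cpe had a difference of -1.03 with limma adjusted p = 0.0382.

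Cdkn2a/Braf melanoma was set against the Lkb1/Braf proliferations, and 5 of the 10 genes passed the test, where 17.1% of all genes did: 4 rose (10.5% of all genes) and 1 fell (6.59%). Prkg2 rose by 4.17 (SE 0.35, limma adjusted p = 5.39e-04), Crabp1 by 3.80 (SE 0.19, 14.0-fold, limma adjusted p = 8.35e-05), Pla2g7 by 3.40 (SE 0.34, 10.6-fold, limma adjusted p = 9.77e-04) and Cpe by 2.23 (SE 0.17, 4.70-fold, limma adjusted p = 3.33e-04). Slc15a1 fell by 1.76 (SE 0.15, limma adjusted p = 5.57e-04). The differences of Anxa1 (0.70), Casp1 (0.49), Cyp27a1 (-0.33), Car2 (-0.20) and Gabrb2 (-0.15) did not pass. The median of the 10 differences was 0.60, against -0.02 over all genes. Averaging its 2 probe sets gave Prkg2 a difference of 2.56, and the call remained.

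Cdkn2a/Braf/Lkb1 melanoma against the same 3 proliferation arrays called those 5 genes too, where 34.4% of all genes passed. Again 4 rose (17.8% of all genes) and 1 fell (16.6%), and the 2 comparisons share the proliferations. Crabp1 rose by 3.96 (SE 0.19, 15.6-fold, limma adjusted p = 5.18e-05), Prkg2 by 3.82 (SE 0.35, limma adjusted p = 4.48e-04), Pla2g7 by 3.35 (SE 0.34, 10.2-fold, limma adjusted p = 5.65e-04) and Cpe by 1.54 (SE 0.17, 2.91-fold, limma adjusted p = 7.70e-04). Slc15a1 fell by 2.08 (SE 0.15, limma adjusted p = 1.88e-04). Casp1 differed by 0.71 (SE 0.30, limma adjusted p = 0.102) and Gabrb2 by -0.37 (SE 0.17, limma adjusted p = 0.127), and Car2, Cyp27a1 and Anxa1 by 0.32 or less in size. Without Cdkn2a/Braf/Lkb1 replicate 2, Casp1 was called at 1.19 and Gabrb2 at -0.62, both past the test, where the lone array of that group is assumed to vary like the arrays of the other groups. With a common interquartile range Cpe differed by 0.57, and with the mean of its probe sets Prkg2 differed by 2.42, and both calls remained. Lists of other cell types differed as well. The hair shaft and root sheath list summed to 950 to 1052 in Cdkn2a/Braf/Lkb1 melanoma, 1019 to 1062 in Cdkn2a/Braf melanoma and 9729 to 13130 in the proliferations, and 19 of its 20 measured genes were called lower in each melanoma genotype. The adipocyte and sebocyte list (12 of 14 measured) summed to 1898 to 3134, 1778 to 3549 and 10027 to 12432 in the same 3 groups. The keratinocyte list summed to 1042 to 2288 in Cdkn2a/Braf/Lkb1 melanoma, 1102 to 9704 in Cdkn2a/Braf melanoma and 33291 to 35513 in the proliferations. The macrophage list summed to 12878 to 16975, 7703 to 8449 and 8088 to 9273 in the same 3 groups. Of its 17 genes 11 were called higher and 0 lower in Cdkn2a/Braf/Lkb1 melanoma. In Cdkn2a/Braf melanoma 4 were called higher and 2 lower. The endothelial list summed to 3601 to 3860, 2759 to 2873 and 1548 to 1691 in the same 3 groups. The skeletal muscle list (12 of 12 measured) summed to 1299 and 7062 in Cdkn2a/Braf/Lkb1 melanoma and 3525 and 947 in Cdkn2a/Braf melanoma. On the proliferation arrays the skeletal muscle list summed to 2441, 21999 and 20137. The part of these lists in these results was not tested.

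Cdkn2a/Braf melanoma against sorted Cdkn2a/Braf melanocytes at day 50 called 7 of the 10 genes, where 22.9% of all genes passed: 6 rose (12.9% of all genes) and 1 fell (9.99%). Crabp1 rose by 6.32 (SE 0.21, 80.1-fold, limma adjusted p = 8.13e-06) and Pla2g7 by 5.89 (SE 0.37, limma adjusted p = 9.44e-05), and over 19 alternative settings these stayed at 5.73 to 6.50 and 5.51 to 6.28 and called in each. Prkg2 rose by 1.79 (SE 0.38, limma adjusted p = 0.01675), Cpe by 1.30 (SE 0.18, limma adjusted p = 0.00303), Casp1 by 1.21 (SE 0.33, limma adjusted p = 0.03697) and Cyp27a1 by 0.68 (SE 0.19, limma adjusted p = 0.03942). Slc15a1 fell by 0.85 (SE 0.16, limma adjusted p = 0.01176). Anxa1 differed by 1.13 (SE 0.44, limma adjusted p = 0.0922), Gabrb2 by -0.48 (SE 0.19, limma adjusted p = 0.0942) and Car2 by 0.34 (SE 0.27, limma adjusted p = 0.354). The median of the 10 differences was 1.17, against -0.15 over all genes.

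The smaller of these calls were less firm. The Prkg2 call ended with the mean of its probe sets (0.57), since the second probe set lay lower in Cdkn2a/Braf melanoma (mean 6.26) than at day 50 (mean 6.91), and without Cdkn2a/Braf melanoma replicate 2 (1.49). With a common interquartile range the differences of Cpe (0.23), Casp1 (0.88) and Slc15a1 (-0.49) were not called, the Slc15a1 call ended without Cdkn2a/Braf melanoma replicate 1 (-0.695), and Anxa1 was called at 1.85 without day 50 replicate 2, on which it was higher, with the lone day 50 array assumed to vary like the arrays of the other groups. Casp1 lost its call in 9 of 19 settings and Cyp27a1 in 8 of 19, among them the fits without any 1 of the 3 proliferation arrays (highest limma adjusted p = 0.186 and 0.164 over all settings). Tissue and sorted cells cannot be told apart from melanoma and melanocyte in this comparison. The macrophage list summed to 7703 to 8449 in melanoma and 1253 to 1553 at day 50, and the fibroblast list to 15994 to 16592 and 7216 to 7472, and their part in these results was not tested.

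The Lkb1/Braf proliferations against the same day 50 cells called 6 of the 10 genes, where 13.2% of all genes passed, with the same limit of tissue against sorted cells. Of these 4 rose (7.5% of all genes) and 2 fell (5.73%). Marker lists differed as well. Called higher were 13 of 20 hair shaft and root sheath, 11 of 12 adipocyte and sebocyte and 12 of 17 macrophage genes, with 0 lower. Of the melanocyte list 10 of 17 were called lower and 0 higher. The part of these lists in these results was not tested. Crabp1 rose by 2.52 (SE 0.19, 5.73-fold, limma adjusted p = 3.30e-04), Pla2g7 by 2.49 (SE 0.34, limma adjusted p = 0.00358), Cyp27a1 by 1.01 (SE 0.17, limma adjusted p = 0.00910) and Slc15a1 by 0.91 (SE 0.15, limma adjusted p = 0.00756). Prkg2 fell by 2.38 (SE 0.35, limma adjusted p = 0.00489) and Cpe by 0.93 (SE 0.17, limma adjusted p = 0.01086). Casp1 differed by 0.72 (SE 0.30, limma adjusted p = 0.151), Car2 by 0.54 (SE 0.25, limma adjusted p = 0.185), Anxa1 by 0.43 (SE 0.40, limma adjusted p = 0.503) and Gabrb2 by -0.32 (SE 0.17, limma adjusted p = 0.240). With the replicate number as a term, Slc15a1 (0.88), Cyp27a1 (1.01) and Cpe (-0.92) were not called. Anxa1 was called at 1.15 without day 50 replicate 2, under the same assumption for the lone array.

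**Figure D4:**
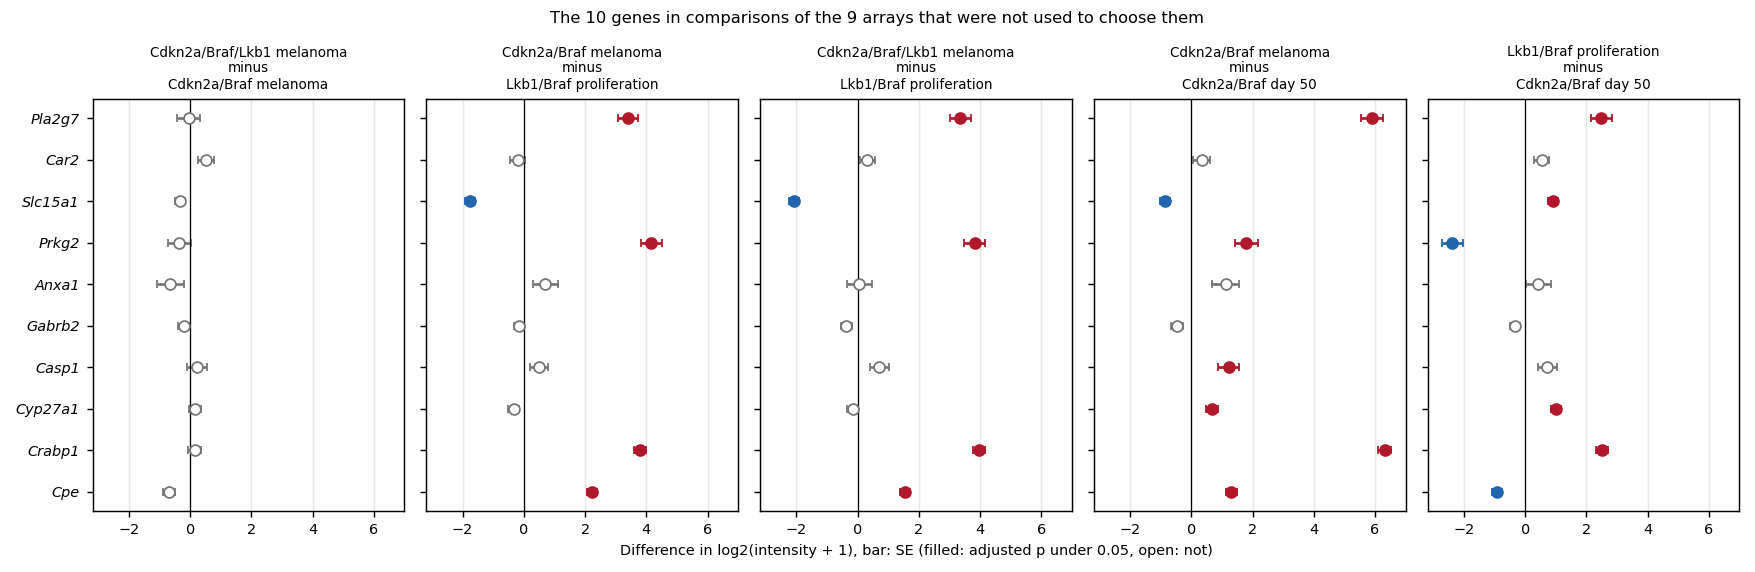
Difference in log2(intensity + 1) of each of the 10 genes in the 5 comparisons of the 9 arrays that did not choose them; bars are standard errors, filled points passed limma's test (adjusted p under 0.05) and open points did not. Crabp1 and Pla2g7 are to the right of 0 in the last 4 panels, and no point is filled in the first.

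Over all 6 groups, by the probe set used, the genes fell into those that peaked in day 19 Cdkn2a/Braf cells and those that peaked in melanoma. Since the day 19 arrays chose the genes, a peak there is partly set by the choice, and nothing is read from it. The share of all genes with such a peak was not computed. Car2, Slc15a1, Gabrb2 and Cyp27a1 had both day 19 Cdkn2a/Braf arrays above all 11 other arrays, with group means of 8.80 ± 0.77, 8.28 ± 0.26, 8.08 ± 0.09 and 8.46 ± 0.12 (SD, n = 2). Pla2g7, Prkg2, Anxa1 and Cpe had their highest mean in Cdkn2a/Braf melanoma, at 11.68 ± 0.55, 8.61 ± 0.43, 11.41 ± 0.11 and 11.41 ± 0.15 (SD, n = 2). The second probe set of Prkg2 did not share this peak. Its mean was 6.91 at day 50, 6.63 in day 19 Cdkn2a/Braf cells, 6.32 in Cdkn2a/Braf/Lkb1 melanoma and 6.26 in Cdkn2a/Braf melanoma. Casp1 and Crabp1 had theirs in Cdkn2a/Braf/Lkb1 melanoma, at 8.75 ± 0.69 and 13.22 ± 0.01 (SD, n = 2). The Cdkn2a only cells had the lowest mean for Car2, Prkg2, Anxa1, Casp1, Crabp1 and Cpe. Of the 50 pairs of neighbouring groups in the orders of the 10 genes, 22 overlapped, and the share over all genes was not computed. For Pla2g7 the melanoma genotypes overlapped each other, and the means then stepped down without overlap through day 19 (10.13), the proliferations (8.28) and Cdkn2a only cells (6.16), which overlapped day 50 (5.79). For Anxa1 the Cdkn2a/Braf/Lkb1 melanoma (10.77), the proliferations (10.71), day 19 (10.62) and day 50 (10.28) each overlapped the next, and the Cdkn2a only cells (7.61) stood apart below. For Gabrb2 the day 50 cells (5.44) lay above the proliferations (5.11), and the proliferations, Cdkn2a only cells (5.08), Cdkn2a/Braf melanoma (4.96) and Cdkn2a/Braf/Lkb1 melanoma (4.75) each overlapped the next.

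The likeness of 2 genes was measured as the root mean square difference of their 6 group means after each gene's own mean was removed, in log2 units, which is a description over the 6 groups. Among the 10 genes Anxa1 and Casp1 were closest (0.34), followed by Car2 with Gabrb2 (0.51) and Slc15a1 with Gabrb2 (0.56). Of the other genes Tnfaip8 was nearest to both Casp1 (0.30) and Anxa1 (0.40), followed by Fxyd5 for Casp1 (0.36) and Sh3pxd2a for Anxa1 (0.43). Syt4, a synaptotagmin of vesicle traffic, was nearest to Gabrb2 (0.31) and second for Slc15a1 (0.48) and Car2 (0.60). Krtap6-3 was nearest to Slc15a1 (0.43), AI504432 to Car2 (0.59), and Dbpht2 second for Gabrb2 (0.43). Cyp27a1 was nearest to Ciart (0.23) and Nme5 (0.26), and Cpe to Mest (0.38) and Itga4 (0.39). For the 3 genes whose own profiles are largest (a root mean square of 2.70 for Crabp1, 2.39 for Pla2g7 and 1.72 for Prkg2, against 1.37 or less for the other 7) the distances were larger too: Crabp1 was nearest to Prrx1 (0.75) and Cdh11 (0.76), Prkg2 to Sema7a (0.84) and Mest (0.91), and Pla2g7 to Abcb1b (1.14) and Smim3 (1.20).

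Few genes from the families and pathways of the 10 passed the test at day 19. Of 123 other genes in 10 lists 2 were called higher and 0 lower in Cdkn2a/Braf against Cdkn2a only cells at day 19 (1.63%, against 0.291% of all genes). These were Lpcat2, an enzyme that makes platelet-activating factor, which rose by 1.09 (SE 0.17, limma adjusted p = 0.0375), and Anxa9, an annexin, which rose by 0.96 (SE 0.16, limma adjusted p = 0.0465). None of 15 other carbonic anhydrases, 4 other oligopeptide transporters, 12 genes of cyclic GMP signalling, 15 other GABA-A receptor subunits, 14 inflammasome genes, 11 oxysterol genes, 17 retinoid genes or 14 genes of peptide hormone processing was called there by limma. Car6, a secreted carbonic anhydrase, differed by 2.98 (SE 0.95, limma adjusted p = 0.402). The list medians lay between -0.11 and 0.15. Of 22 output genes of the MAPK cascade, Myc rose by 1.82 (SE 0.25, limma adjusted p = 0.0156) and Ccnd1, cyclin D1, by 1.42 (SE 0.18, limma adjusted p = 0.0121), and the list median was 0.48. The count over relatives and MAPK genes, 4 here, was 0 with the 6 sorted arrays alone or without day 19 Cdkn2a/Braf replicate 2, 1 without replicate 1 of that group, and 2 without either Cdkn2a only array.

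In the lesions the relatives of the 10 genes moved in both directions. Of the 123 relatives 14 rose and 14 fell in Cdkn2a/Braf melanoma against the proliferations (22.8%, against 17.1% of all genes), and 30 rose and 17 fell in Cdkn2a/Braf/Lkb1 melanoma against the same arrays (38.2%, against 34.4% of all genes). Of the 28 calls in Cdkn2a/Braf melanoma, 14 held in every fit that left out 1 of the 9 arrays, a check chosen after seeing the data. Among the relatives of Prkg2, the cyclic GMP-dependent kinase Prkg1 rose by 3.29 (SE 0.46) and the natriuretic peptide receptor Npr2 by 2.01 (SE 0.28) in Cdkn2a/Braf melanoma against the proliferations, while the clearance receptor Npr3 fell by 0.93 (SE 0.14). Among those of Cpe, Pam, which amidates peptide hormones, rose by 2.32 (SE 0.26) while Scg3, a granin of secretory granules, fell by 1.37 (SE 0.21). Among those of Crabp1, the retinol dehydrogenase Rdh10 rose by 2.02 (SE 0.29) and the retinol carrier Rbp4 fell by 2.49 (SE 0.30). Among those of Pla2g7, the phospholipase Pla2g4a rose by 1.41 (SE 0.19). Relatives of genes that were not called moved as well: Anxa3 rose by 2.47 (SE 0.21), Car3 fell by 4.72 (SE 0.37), Gabrp fell by 2.20 (SE 0.30) and Casp12 rose by 2.07 (SE 0.25). Each relative named in this paragraph passed without any 1 array.

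Against day 50 cells 18 of the 123 relatives rose and 13 fell in Cdkn2a/Braf melanoma (25.2%, against 22.9% of all genes), and 18 rose and 7 fell in the proliferations (20.3%, against 13.2% of all genes). In Cdkn2a/Braf melanoma Rdh10 rose by 3.54 (SE 0.32), Pam by 2.92 (SE 0.29) and Pla2g4a by 2.90 (SE 0.21) against day 50. In the proliferations Gucy1a1, a subunit of the guanylate cyclase that makes cyclic GMP, fell by 1.19 (SE 0.19). These 4 calls held without any 1 array, as did 11 of the 31 calls in melanoma and 16 of the 25 in the proliferations. Between the melanoma genotypes 1 of the 123 was called, Stra6, a retinol receptor, which rose by 1.47 (SE 0.17, limma adjusted p = 0.0135) with Lkb1 altered and was not called without Cdkn2a/Braf melanoma replicate 2. Of the 22 MAPK output genes 8 rose (10.5% of all genes) and 1 fell (6.59%) in Cdkn2a/Braf melanoma against the proliferations (list median 0.76). Without any 1 array 4 of these 9 calls held, among them Spry4 at 2.13 (SE 0.23) and Ccnd1 at 2.08 (SE 0.12). In the proliferations against day 50, 1 rose (7.5% of all genes) and 7 fell (5.73%), with a list median of -0.21. Without any 1 array 3 of these 8 calls held. They were Phlda1 at -1.61 (SE 0.19), Myc at -1.37 (SE 0.19) and Epha4, the 1 that rose, at 1.13.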

How the data were processed

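Total RNA was amplified and labelled with NuGEN reagents and hybridised to Affymetrix arrays, per the labels' protocols. The deposited values are linear intensities that the authors made with RMA, per the submitters' processing notes. RMA normally ends in log2 values, and the linear scale was read from the range (3.35 to 17698, array medians 68.3 to 80.5). Of 34760 probe sets, 21640 named 1 gene, 1321 named several and were left out, and 11799 were unnamed here. Of the 1-gene sets 21553 matched by Entrez identifier. This gave 19937 genes, with the set of highest mean used for the 954 genes with several.

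Values were tested as log2(intensity + 1), which understates changes of dim genes. limma 3.58.1 (R 4.3.3) estimated group means over the 9 arrays that did not choose the genes (5 residual and 2.92 prior degrees of freedom), or over all 13 arrays for other genes at day 19 (7 and 3.06), with two-sided tests called at a Benjamini-Hochberg adjusted p under 0.05, adjusted across all 19937 genes. The fit was tested on a single simulated data set for each comparison, with fewer changed genes than were called in most real comparisons. In the comparisons of the 9 arrays 1.97% to 9.2% of calls were false, above the nominal level in most. Of the smallest changes (1 log2 unit) 41.8% to 56.7% were found there. These rates need not hold where more genes differ. Calls near the threshold are less certain, and a gene that did not pass may still differ. Python 3.11.15, pandas 2.3.3, numpy 2.4.6 and matplotlib 3.10.9 made tables and plots.

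The 10 genes, the family lists and the marker lists were chosen with earlier results of these data known. Genes named besides the 10 are called list genes (up to the 4 largest by difference in a list and comparison), defining markers, the 2 nearest genes of each of the 10, and called genes with a larger difference than the smallest of the 10 at day 19. Car6, Ephx4 and Epha4 fall outside this rule and were chosen after their values were seen. Alternatives were median centring, quantile normalization, a common interquartile range, the mean of probe sets, a filter on dim genes, a pseudocount of 16, trend and robust moderation, array weights, other array sets, the replicate number as a term, and leaving out each array.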

Additional observations from a re-analysis of the deposited data

How the results depend on the processing

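Among the calls that no alternative ended, where the gene was tested, were those of Crabp1 and Pla2g7 in the 4 comparisons that called them, and those of Prkg2, Cpe and Slc15a1 between melanoma and the proliferations. Scaling to a common interquartile range gave 1 called gene of the 10 between the melanoma genotypes (0 as reported) and 4 for Cdkn2a/Braf melanoma against day 50 (7 as reported). With genes above the median level alone, a filter that removes some of the 10, 3 of the 10 were called in each melanoma genotype against the proliferations (5 as reported). Leaving out 1 array gave 0 to 0 called genes between the melanoma genotypes, 5 to 5 and 5 to 7 for Cdkn2a/Braf and Cdkn2a/Braf/Lkb1 melanoma against the proliferations, 4 to 7 for Cdkn2a/Braf melanoma against day 50 (4 without Cdkn2a/Braf melanoma replicate 2), and 6 to 7 for the proliferations against day 50. The 4 relatives and MAPK output genes called at day 19 became 2 with quantile normalization, 2 with a common interquartile range, 2 with genes above the median level, 0 with only the 6 sorted arrays, and 0 to 2 without 1 array. The fits with only the sorted arrays and with genes above the median level were chosen after seeing the data.

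Values that changed sign were called neither as reported nor at the changed sign. Quantile normalization gave Gabrb2 0.002 for Cdkn2a/Braf melanoma against the proliferations and Anxa1 -0.36 for Cdkn2a/Braf/Lkb1 melanoma against them. The common interquartile range gave Gabrb2 0.015, Casp1 -0.003 and Crabp1 -0.50 between the melanoma genotypes, Anxa1 -0.11 and Gabrb2 0.21 for Cdkn2a/Braf melanoma against the proliferations, and Anxa1 -1.11 and Gabrb2 0.23 for Cdkn2a/Braf/Lkb1 melanoma against them. Leaving out 1 array gave ranges that crossed 0: between the melanoma genotypes Pla2g7 -0.56 to 0.46, Gabrb2 -0.465 to 0.031, Casp1 -0.27 to 0.705, Cyp27a1 -0.12 to 0.448 and Crabp1 -0.024 to 0.335, for Cdkn2a/Braf/Lkb1 melanoma against the proliferations Anxa1 -0.34 to 0.454, Car2 -0.093 to 0.724 and Cyp27a1 -0.447 to 0.12, and for the proliferations against day 50 Anxa1 -0.29 to 1.145, where the highest value was called (limma adjusted p = 0.0247). The cause of these changes was not tested.

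The correlations of same-numbered deviations over genes lay between -0.12 and 0.09. With so few arrays in a group, these correlations cannot decide whether the replicate numbers pair the samples. With the replicate block 3 of the 10 were called for the proliferations against day 50 (6 as reported), with Slc15a1, Cyp27a1 and Cpe no longer called, and 1 of the relatives and MAPK output genes at day 19 (4 as reported). Crossing the numbers between the melanoma genotypes, added after seeing the data, called 0 of the 10 and 8 genes in all.

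The number of all genes called ranged from 8 to 799 between the melanoma genotypes (279 as reported), 1314 to 5829 and 2982 to 9458 for Cdkn2a/Braf and Cdkn2a/Braf/Lkb1 melanoma against the proliferations (3406 and 6862), 1721 to 6456 for Cdkn2a/Braf melanoma against day 50 (4570), 977 to 4560 for the proliferations against day 50 (2638) and 1 to 65 at day 19 (58). The log2 interquartile range over genes was 1.93 to 2.10 on the day 50 and proliferation arrays and 2.45 to 2.89 on the others. The values carry no flag for signal over background, so dim levels such as those of Gabrb2 and Slc15a1 in melanoma have no stated bound.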
